A study of Mus musculus with 24 samples.

Results

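The genes described here are 53 genes of DNA replication and S phase in C2C12 myotubes, muscle fibres formed in culture by fusion of a mouse myoblast line. They were picked by symbol out of the 55487 genes listed, and all 53 were among the 14541 genes tested, those that reached 10 normalized counts in 6 or more of the 24 libraries. By role, 18 act in origin licensing and firing, 20 are polymerases, clamp and fork proteins, 5 supply nucleotides, and 10 serve chromatin assembly, S-phase control and the checkpoint. Wild-type myotubes at day 5 had been differentiated in 5 % O2 and were then held for 2 h at 5 % or 1 % O2. At each level 6 libraries came from unstimulated cells (5 % CTRL and 1 % CTRL) and 6 from cells given electrical pulses that make them contract (5 % STIM and 1 % STIM). By the study's description the pulses followed the 2 h exposure, and stimulated cells were collected immediately after them. All 24 libraries share 1 clonal line. The study's methods describe the libraries of a condition as biological replicates. As they do not say how cultures were kept apart, p-values measure the spread between these libraries.

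Cells copy their genome once per division. Before S phase, the origin recognition complex with Cdc6 and Cdt1 loads the Mcm2 to Mcm7 helicase onto origins, and the kinase Cdc7 with its activating subunit Dbf4 then fires it together with Cdc45 and the GINS complex. DNA polymerases, the sliding clamp Pcna and its loader extend and join the new strands, while ribonucleotide reductase and its partners make the nucleotides. Transcription of many of these genes is driven by E2F factors and is held low by Rb family proteins in cells that have left the cycle. Myotubes have left it, and C2C12 cultures also keep some mononucleated cells that have not fused.

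In unstimulated myotubes 52 of the 53 genes were higher after 2 h at 1 % than at 5 % O2, with Cdc6 rising most. Of all genes tested, 29.4 % were called higher and 30.5 % lower. Stimulation at 5 % O2 left the set near its resting level, with 3 genes called, against 21.4 % of all genes tested. After stimulation at 1 % O2, 36 genes fell and Dbf4 alone rose. Here 10.8 % of all genes tested were called lower and 11.5 % higher. Levels stayed above those at 5 % O2 for 51 genes, where 29.0 % of all genes tested were called higher. For 11 genes the response to stimulation itself differed between the O2 levels, against 11.3 % of all genes tested.

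Depth was even, at 26541858 to 28173745 reads per library, and values are read counts divided by the library's size factor (normalized count). The genes described had between 25.1 and 5962 normalized counts in single libraries. One library stood apart. Replicate 1 of 1 % CTRL was the highest of its group for 44 of the 53 genes, by a median of 19.2 % over the mean of the other 5, and it had the steepest trend of counts with gene length (slope 0.0945, against −0.0367 to 0.0550 in the rest). Results were therefore also computed without it. These values are given for many, not all, of the calls, signs and sizes that depended on it. Marker genes of myotubes were abundant throughout. The 16 listed, among them Myh1, Acta1, Ckm and Myog, summed to between 611233 and 730929 normalized counts per library, with no marker at 0.

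The first question was how these genes responded to the O2 level in resting cells. In 1 % CTRL compared with 5 % CTRL, 52 genes rose and 0 fell at an adjusted p-value under 0.05 in limma, and likewise in edgeR and DESeq2 (1 fell at an unadjusted p-value under 0.05, Dbf4). By limma 59.9 % of all genes tested were called, 29.4 % higher and 30.5 % lower. The groups did not overlap for 51 of them, against 18.2 % of all genes tested that lay apart higher and 19.9 % lower. The median log2 fold change was 1.08, or 2.11-fold, where the median over all genes tested was 0.0015, and 27 genes rose by more than 2-fold. Without replicate 1 of 1 % CTRL the same 52 rose and the median was 1.03. Of all 14541 genes tested, 8955 were then called in either direction, against 8708 with all 24 libraries. Because 1 was added to the normalized counts before the log2, fold changes of low genes are understated. In bulk RNA a change in the number of cells of a type and a change in RNA per cell cannot be told apart.

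Origin licensing and firing held the largest change. Cdc6, the loading ATPase on chromosome 11 (98907801 to 98923940), had a lowest, median and highest normalized count of 51.9, 78.2 and 88.0 in 5 % CTRL and of 580.4, 599.8 and 788 in 1 % CTRL. Every library at 1 % O2 was thus several times above every library at 5 % O2. The means were 75.7 ± 13.3 and 632 ± 79.0 (SD, n = 6), a log2 fold change of 3.06 ± 0.10 (SE, limma adjusted p = 1.32e-22). Mcm5, a helicase subunit on chromosome 8 (75109569 to 75128439), had 289, 334 and 425 in 5 % CTRL and 1432, 1573 and 1967 in 1 % CTRL, again without overlap. Its log2 fold change was 2.23 ± 0.094 (SE, limma adjusted p = 5.88e-16). For Mcm3, on chromosome 1 (20802968 to 20820312), the values were 397, 450.5 and 469.5 against 1562, 1585 and 2042, with a log2 fold change of 1.91 ± 0.067 (SE, limma adjusted p = 2.49e-20). Mcm10, which binds the helicase at origins (chromosome 2, 4989714 to 5012791), had 67.5, 71.2 and 87.0 in 5 % CTRL and 241, 257 and 344 in 1 % CTRL. The log2 fold change was 1.85 ± 0.11 (SE, limma adjusted p = 7.18e-16).

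The 6 subunits of the Mcm2 to Mcm7 ring all rose, between 1.94-fold for Mcm7 and 4.70-fold for Mcm5. Mcm2, Mcm3, Mcm4 and Mcm6 rose 3.18-fold, 3.75-fold, 2.82-fold and 2.63-fold. Cdc45, which travels with the active helicase, rose 2.14-fold, from 148, 187 and 212 to 350.0, 372 and 482 normalized counts. The loaders rose 3.10-fold for Cdt1 and 3.03-fold for Orc1, whereas Orc6 rose 1.36-fold. Among the GINS subunits, Gins1 rose 2.65-fold, and Gins2, Gins3 and Gins4 rose 1.45-fold, 1.51-fold and 1.33-fold. Gins2 is uncertain, since 67.3 % of its exon bases lie opposite exons of Gse1 and the counting did not use strand. Cdc7 rose 1.67-fold. Its activator Dbf4, on chromosome 5 (8396973 to 8422716), did not. Dbf4 had 289, 309.9 and 337 normalized counts in 5 % CTRL and 257, 280.0 and 324 in 1 % CTRL, so the groups overlapped (log2 fold change −0.15 ± 0.069 SE, limma adjusted p = 0.0606). Without replicate 1 of 1 % CTRL the value was −0.19 (limma adjusted p = 0.0161), and Dbf4 then counted as lower.

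**Figure D1:**
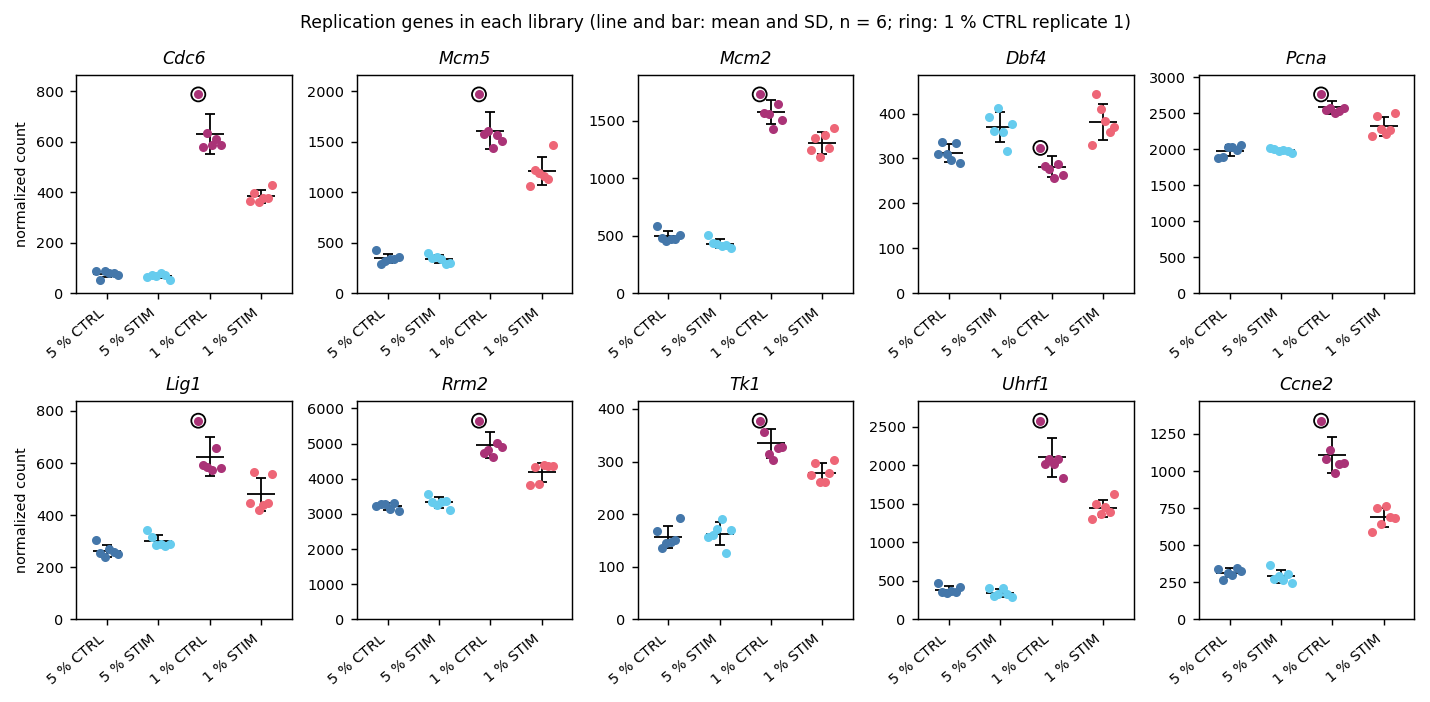
Normalized counts (vertical axes, linear from 0) of 10 genes in each of the 24 libraries, by group. Points are libraries, the line and bar are the mean ± SD (n = 6), and the ring marks replicate 1 of 1 % CTRL. Cdc6 sits between 51.9 and 88.0 in 5 % CTRL and between 580.4 and 788 in 1 % CTRL, while Dbf4 is highest in the stimulated groups.

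Promoter sequence was read for members that moved together. RefSeq windows on GRCm38.p6, from 250 bases before to 50 bases after each start, were found for 44 of the 53 genes and not for Ccne2, Gins1, Gins2, Gins4, Mcm4, Pole, Prim2, Rfc2 and Tipin. The letters of an E2F site were searched as TTTGGCGC, TTTCGCGC, TTTCCCGC and TTTGCCGC on both strands. They were present for 17 of the 44 genes (38.6 %), against 4.56 % of 10519 genes tested and 2.60 % of all 27025 genes with windows of this length. The core of the site for hypoxia-inducible factors, ACGTG, was in 31.8 % of these genes and in 29.0 % of genes tested. In 1 % CTRL against 5 % CTRL the 17 genes with E2F letters had a median log2 fold change of 1.55, from 0.59 to 3.06. The 27 without them had a median of 0.82, from −0.15 to 2.46. A match is letters in a window and was not tested as a site. The 250 bases before the start are shown 5′ to 3′ on the gene's strand for Cdc6 and Mcm5, which rose most in their group, for Mcm6, which holds the letters in 3 places, and for Dbf4, which did not rise. E2F letters are in capitals.
Cdc6, chr11:98907901-98908150, plus strand: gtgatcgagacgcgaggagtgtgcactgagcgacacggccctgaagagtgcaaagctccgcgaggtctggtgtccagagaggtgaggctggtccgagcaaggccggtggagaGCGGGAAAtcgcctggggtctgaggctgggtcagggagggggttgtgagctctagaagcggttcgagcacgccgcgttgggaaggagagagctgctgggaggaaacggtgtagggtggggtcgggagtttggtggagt
Mcm5, chr8:75109259-75109508, plus strand: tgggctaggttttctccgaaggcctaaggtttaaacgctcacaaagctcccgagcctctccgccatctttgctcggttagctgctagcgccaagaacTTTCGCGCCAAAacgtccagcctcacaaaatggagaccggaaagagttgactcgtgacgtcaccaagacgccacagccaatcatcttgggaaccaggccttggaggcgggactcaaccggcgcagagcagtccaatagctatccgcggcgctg
Mcm6, chr1:128359706-128359955, minus strand: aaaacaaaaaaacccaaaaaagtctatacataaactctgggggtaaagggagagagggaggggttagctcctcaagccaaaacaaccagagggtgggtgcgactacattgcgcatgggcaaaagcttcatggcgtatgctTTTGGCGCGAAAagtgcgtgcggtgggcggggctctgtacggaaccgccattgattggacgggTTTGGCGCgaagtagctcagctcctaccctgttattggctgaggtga
Dbf4, chr5:8422717-8422966, minus strand: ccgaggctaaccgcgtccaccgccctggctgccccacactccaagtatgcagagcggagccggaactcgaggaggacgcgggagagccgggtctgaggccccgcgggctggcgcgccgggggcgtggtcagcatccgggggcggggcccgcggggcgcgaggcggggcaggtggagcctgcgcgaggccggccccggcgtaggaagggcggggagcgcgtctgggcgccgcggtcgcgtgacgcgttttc
Distances are from the RefSeq start. For Cdc6 this start lies 350 bases inside the gene as placed by the GENCODE coordinates given above, so the window shown falls within the annotated gene, whereas for Mcm5, Mcm6 and Dbf4 both starts lay within 100 bases. Over the 44 genes, 36 had a RefSeq start within 100 bases of the GENCODE one. In Cdc6 the letters GCGGGAAA begin 138 bases before the start. In Mcm5, TTTCGCGC at 153 bases overlaps GCGCCAAA at 149 bases. In Mcm6, TTTGGCGC at 110 bases overlaps GCGCGAAA at 106 bases, and TTTGGCGC recurs at 47 bases. The Dbf4 window held none of these letters. Neither did that of Chaf1b, which rose by 2.46 on the log2 scale, the most of the 27 genes without them.

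Of the 20 polymerase, clamp and fork genes, all 20 rose in 1 % CTRL against 5 % CTRL, with a median log2 fold change of 0.89 and a range from 0.38 to 1.55. The catalytic subunits of the leading and lagging strand polymerases led. Pold1, on chromosome 7 (44532746 to 44548849), had 113, 124 and 148 normalized counts in 5 % CTRL and 351, 368 and 417 in 1 % CTRL, which gave a log2 fold change of 1.55 ± 0.087 (SE, limma adjusted p = 6.35e-17). Pole, on chromosome 5 (110286306 to 110337474), had 163, 179 and 193 and 431, 516 and 729, a log2 fold change of 1.54 ± 0.084 (SE, limma adjusted p = 2.88e-17). Neither gene had a library at 1 % O2 within the range at 5 % O2. Pole2, the small subunit of the same enzyme on chromosome 12 (69201773 to 69228195), changed by 1.46 ± 0.12 (SE, limma adjusted p = 4.71e-13). Prim1, the primase that starts each strand, on chromosome 10 (128015168 to 128030037), changed by 1.34 ± 0.082 (SE, limma adjusted p = 7.61e-16). The second primase subunit, Prim2, had a log2 fold change of 0.49. Polymerase alpha, which works with primase, rose 2.37-fold for its catalytic subunit Pola1 and 1.95-fold for Pola2. The accessory subunits of polymerase delta, Pold2 and Pold3, rose 1.66-fold and 1.59-fold, less than the 2.93-fold of Pold1, a difference that was not tested. Smaller rises were seen for Pcna, at 1.305-fold, and for the 5 clamp loader genes Rfc1 to Rfc5, at 1.48-fold to 1.97-fold. Okazaki fragment enzymes Fen1 and Lig1 rose 2.11-fold and 2.36-fold, although 84.2 % of the Fen1 exon bases lie opposite exons of Tmem258 and Gm10143. Of the single-strand binding complex, Rpa1 and Rpa2 rose 1.77-fold and 1.66-fold and Rpa3 1.41-fold. Rpa3 alone of the 20 overlapped between groups, with 43.5 to 69.2 against 63.3 to 85.3 normalized counts.

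The 5 nucleotide supply genes rose less, with a median log2 fold change of 0.62. Tk1, the thymidine kinase of the salvage pathway on chromosome 11 (117815526 to 117826092), had 135, 149 and 193 normalized counts in 5 % CTRL and 303, 328 and 378 in 1 % CTRL (log2 fold change 1.09 ± 0.085 SE, limma adjusted p = 2.87e-13). Dut, which removes dUTP and lies on chromosome 2 (125247190 to 125258608), changed by 0.85 ± 0.10 (SE, limma adjusted p = 8.79e-09). Ribonucleotide reductase was already abundant at 5 % O2. Its small subunit Rrm2, on chromosome 12 (24708241 to 24714146), had 3073, 3261 and 3308 normalized counts in 5 % CTRL and 4618, 4855 and 5653 in 1 % CTRL. The log2 fold change was 0.62 ± 0.042 (SE, limma adjusted p = 1.78e-14). Tyms, the thymidylate synthase on chromosome 5 (30058202 to 30073617), changed by 0.60 ± 0.076 (SE, limma adjusted p = 2.98e-08), and the large reductase subunit Rrm1 by 0.40.

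The 10 genes of chromatin assembly, S-phase control and the checkpoint had the highest median of the 4 roles, a log2 fold change of 1.77. Chaf1b, a subunit of the histone chaperone CAF-1 on chromosome 16 (93883901 to 93906115), had 45.8, 56.8 and 68.4 normalized counts in 5 % CTRL and 270.4, 301 and 384 in 1 % CTRL (log2 fold change 2.46 ± 0.11 SE, limma adjusted p = 2.65e-19). Uhrf1, which guides maintenance methylation on new DNA and lies on chromosome 17 (56303321 to 56323486), had 344, 361 and 467 and 1835, 2049 and 2579.9 (log2 fold change 2.45 ± 0.095 SE, limma adjusted p = 2.38e-16). Both rose more than 5-fold without overlap. Dtl, the substrate receptor that sends Cdt1 for degradation, on chromosome 1 (191537356 to 191575544), changed by 2.16 ± 0.093 (SE, limma adjusted p = 8.67e-18). Timeless, of the fork protection complex on chromosome 10 (128232065 to 128252941), changed by 1.83 ± 0.091 (SE, limma adjusted p = 2.93e-18). Its partner Tipin rose 1.88-fold and the checkpoint mediator Clspn 3.31-fold. The cyclins of S-phase entry rose 2.14-fold for Ccne1 and 3.51-fold for Ccne2, and the histone mRNA binding gene Slbp rose 1.68-fold. Chaf1a rose 3.18-fold, with 52.5 % of its exon bases opposite exons of Ubxn6.

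**Figure D2:**
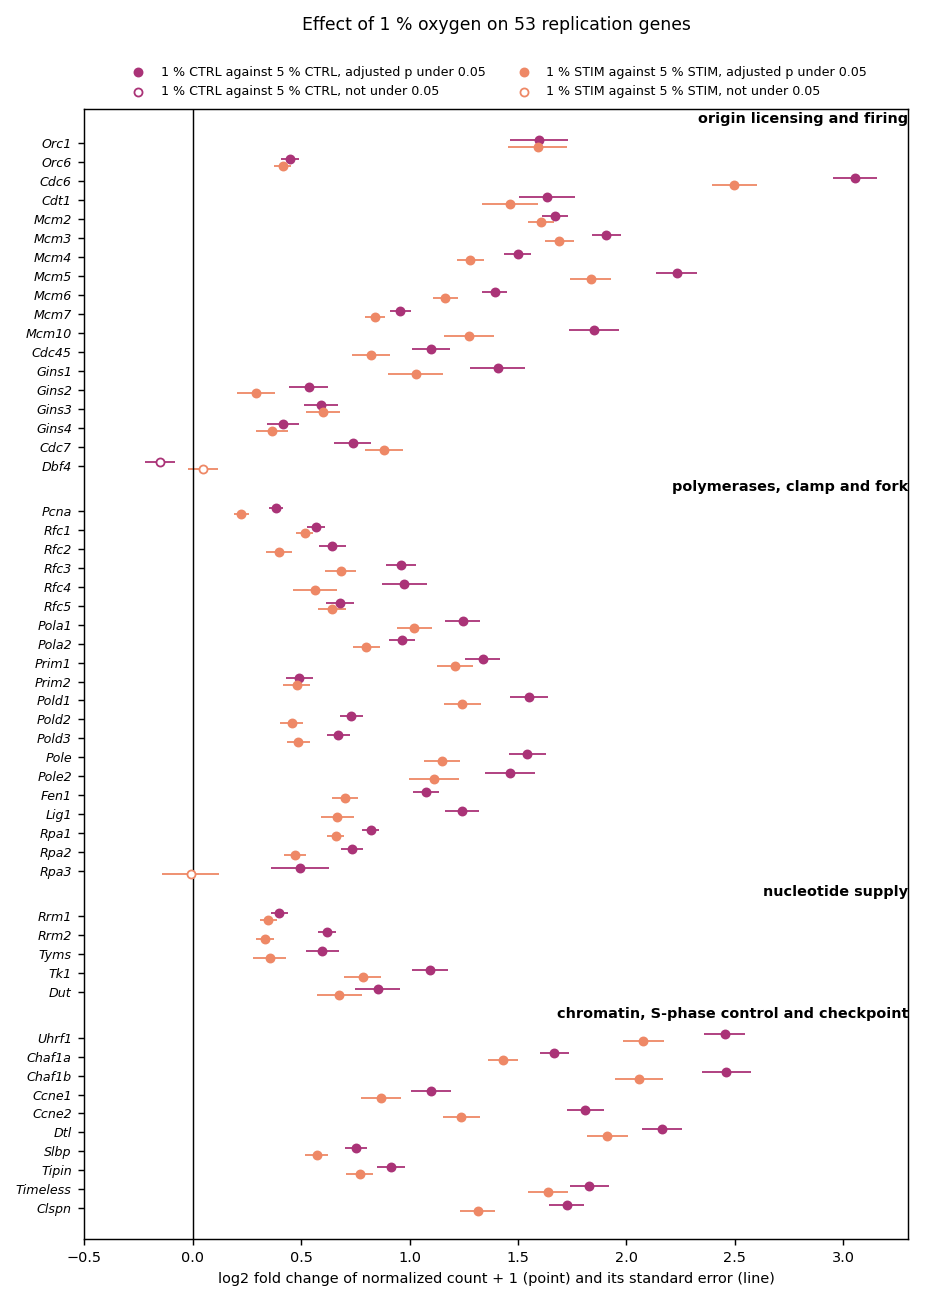
Log2 fold change of 1 % against 5 % O2 (horizontal axis) for the 53 genes by role, in unstimulated and in stimulated myotubes. Points are limma estimates with their standard error, filled where the adjusted p-value was under 0.05. Cdc6 lies farthest to the right at 3.06 and 2.499, and Dbf4 lies at −0.15 and 0.047.

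The same contrast in stimulated myotubes, 1 % STIM against 5 % STIM, gave 51 genes higher and 0 lower in limma, edgeR and DESeq2, also 0 lower at an unadjusted p-value under 0.05. By limma 57.4 % of all genes tested were called, 29.0 % higher and 28.4 % lower. The groups did not overlap for 49, against 18.7 % of all genes tested that lay apart higher and 18.7 % lower. The median log2 fold change was 0.80. Cdc6 led again, with 52.6, 68.8 and 80.8 normalized counts in 5 % STIM and 363, 375 and 428 in 1 % STIM (log2 fold change 2.499 ± 0.10 SE, limma adjusted p = 3.72e-20). Next in licensing were Mcm5 at 1.84, Mcm3 at 1.69 and Mcm2 at 1.60 (adjusted p = 3.18e-14, 6.18e-19 and 1.10e-20, limma). Among polymerases the log2 fold changes were 1.24 for Pold1, 1.21 for Prim1, 1.15 for Pole and 1.11 for Pole2. Nucleotide supply gave 0.78 for Tk1, 0.68 for Dut, 0.35 for Tyms and 0.35 for Rrm1. Uhrf1, Chaf1b, Dtl and Timeless rose by 2.08, 2.06, 1.91 and 1.64 on the log2 scale. Dbf4 and Rpa3 were not called, at 0.047 ± 0.069 (SE, limma adjusted p = 0.587) and −0.011 ± 0.13 (SE, limma adjusted p = 0.952).

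Side by side, the change with O2 was smaller in stimulated than in unstimulated myotubes for 50 of the 53 genes. Without replicate 1 of 1 % CTRL this was so for 48. The difference between these contrasts is by calculation the interaction tested below, for which 11 genes passed and 42 did not. The counts here are therefore not a separate result. The contrasts in stimulated and in unstimulated myotubes share no library. Across the 53 genes, which are not independent replicates, the log2 fold changes of both had a Pearson r of 0.968 and a Spearman rho of 0.958.

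The effect of stimulation was compared next, at each O2 level. In 5 % STIM against 5 % CTRL, 1 gene rose and 2 fell, whereas 21.4 % of all genes tested were called, 9.44 % higher and 12.0 % lower. Another 5 genes had an unadjusted p-value under 0.05 without being called, so that 8 passed it in all. The median log2 fold change was −0.018 and the groups overlapped for all 53 genes, while 5.64 % of all genes tested lay apart higher and 5.44 % lower. Values were below 0 for 12 of 18 licensing and firing genes and 9 of 20 polymerase, clamp and fork genes. They were below 0 for 1 of 5 nucleotide supply genes and 9 of 10 chromatin, S-phase control and checkpoint genes (median −0.11, none called). Dbf4 had 289, 309.9 and 337 normalized counts in 5 % CTRL and 316, 369 and 412 in 5 % STIM. The log2 fold change was 0.24 ± 0.069 (SE, limma adjusted p = 0.0114). Mcm2, on chromosome 6 (88883474 to 88898780), had 452, 476 and 587 and 392, 421 and 503, a log2 fold change of −0.20 ± 0.060 (SE, limma adjusted p = 0.0152). Cdc7, the catalytic partner of Dbf4 on chromosome 5 (106964322 to 106984432), had 151, 174 and 213 and 122, 157 and 178. Its log2 fold change was −0.24 ± 0.087 (SE, limma adjusted p = 0.0497), close to the threshold, and 6 of the 8 alternative settings ended this call. The other 50 genes had log2 fold changes between −0.22 and 0.28, and for 49 of these the 95 % confidence interval stayed within ± 0.5. Among the 50, Lig1 at 0.19 was called higher without replicate 1 of 1 % CTRL (limma adjusted p = 0.0414). Lig1 was also called with the replicate block, rescaled libraries and the length slope.

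At 1 % O2 the response was wider. In 1 % STIM against 1 % CTRL, 36 genes fell and 1 rose, where 22.3 % of all genes tested were called, 10.8 % lower and 11.5 % higher. The groups lay apart for 18 of those that fell, against 5.91 % of all genes tested, and for the 1 that rose, against 5.29 %. The same 18 lay apart lower without replicate 1 of 1 % CTRL, against 7.83 % of all genes tested. With all 24 libraries the median log2 fold change was −0.26 (all genes tested, −0.0031). Without replicate 1 of 1 % CTRL, 31 genes fell, as Mcm7, Rfc2, Rfc3, Rfc4 and Tk1 lost their calls, and the median was −0.22. Of all 14541 genes tested, 3748 were then called in either direction, against 3245 with all 24 libraries. By role, 10 of 18 licensing and firing genes, 13 of 20 polymerase, clamp and fork genes, 3 of 5 nucleotide supply genes and 10 of 10 chromatin, S-phase control and checkpoint genes fell.

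Cdc6 fell most, by 38.9 %. Its normalized counts were 580.4, 599.8 and 788 in 1 % CTRL and 363, 375 and 428 in 1 % STIM, without overlap (log2 fold change −0.71 ± 0.10 SE, limma adjusted p = 1.92e-06). Without replicate 1 of 1 % CTRL the log2 fold change was −0.65 (limma adjusted p = 4.12e-06). The lowest 1 % STIM library still lay above the 80.8 normalized counts of the highest 5 % STIM library. Mcm10 had 241, 257 and 344 in 1 % CTRL and 158, 178 and 254 in 1 % STIM, and Mcm5 1432, 1573 and 1967 and 1064, 1173 and 1466. In both genes the groups overlapped, with log2 fold changes of −0.51 ± 0.11 (SE, limma adjusted p = 8.57e-04) and −0.42 ± 0.094 (SE, limma adjusted p = 0.00177). Cdt1 and Cdc45 fell by 23.8 % and 18.5 %, while Orc1 and Orc6 were not called, at −0.20 (−0.12 without replicate 1 of 1 % CTRL) and −0.042 on the log2 scale. All 6 subunits of the Mcm2 to Mcm7 ring fell, from −0.42 for Mcm5 to −0.13 for Mcm7, which moved to −0.084 and lost its call without replicate 1 of 1 % CTRL (adjusted p = 0.137, limma). The 4 GINS genes were not called, also not at an unadjusted p-value under 0.05, with log2 fold changes between −0.11 and −0.0038. With replicate 1 of 1 % CTRL left out, those of Gins3 and Gins4 turned above 0, at 0.041 (limma adjusted p = 0.704) and 0.0062 (limma adjusted p = 0.965).

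Dbf4 went the other way. It had 257, 280.0 and 324 normalized counts in 1 % CTRL and 329, 376 and 443 in 1 % STIM, so that every stimulated library was above every unstimulated one. The rise was 35.2 %, a log2 fold change of 0.44 ± 0.069 (SE, limma adjusted p = 8.89e-06), and 0.48 (limma adjusted p = 1.08e-06) without replicate 1 of 1 % CTRL. Cdc7, which Dbf4 activates, had a log2 fold change of −0.092 ± 0.087 (SE, limma adjusted p = 0.517). A difference between the Dbf4 responses at 1 % and 5 % O2 did not pass the test (log2 difference 0.20 ± 0.098 SE, limma adjusted p = 0.209).

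Among polymerases and fork genes, Pole2 had 174, 191 and 265 normalized counts in 1 % CTRL and 129, 148 and 169 in 1 % STIM. The log2 fold change was −0.43 ± 0.12 (SE, limma adjusted p = 0.00602). Pold1 had 351, 368 and 417 and 245, 277 and 339, a log2 fold change of −0.40 ± 0.087 (SE, limma adjusted p = 5.83e-04). The replicative ligase Lig1, on chromosome 7 (13277283 to 13311433), had 571, 589 and 762 and 421, 448 and 564, a log2 fold change of −0.38 ± 0.078 (SE, limma adjusted p = 3.27e-04). In these 3 genes the groups lay apart, whereas they overlapped in Pole, at −0.33 ± 0.084 (SE, limma adjusted p = 0.00288). Pcna fell by 10.3 %, from 2502, 2559 and 2762 to 2187, 2272 and 2502 normalized counts. The groups lay apart by less than 1 normalized count, so this separation is marginal. Pola2 and Pold3 fell by 18.8 % and 12.1 %, Rpa1 and Rpa2 by 11.6 % and 14.4 %, and Fen1 by 17.3 %. Clamp loader genes fell by 12.3 % (Rfc2), 13.4 % (Rfc3) and 18.5 % (Rfc4). These 3 calls were lost without replicate 1 of 1 % CTRL, at log2 fold changes of −0.13 (limma adjusted p = 0.0778), −0.15 (limma adjusted p = 0.1004) and −0.28 (limma adjusted p = 0.0518). Those of Rfc3 and Rfc4 were also lost with all 24 libraries when the filter was omitted or the libraries were rescaled. Pola1, Prim1, Prim2, Pold2, Rfc1, Rfc5 and Rpa3 were not called, with log2 fold changes between −0.28 and −0.079. With replicate 1 of 1 % CTRL left out, those of Prim1, Pola1, Prim2 and Rfc1 moved from −0.21, −0.15, −0.079 and −0.083 to −0.13, −0.061, −0.047 and −0.036.

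For nucleotide supply, Rrm2 had 4618, 4855 and 5653 normalized counts in 1 % CTRL and 3829.7, 4351 and 4386 in 1 % STIM. The log2 fold change was −0.24 ± 0.042 (SE, limma adjusted p = 4.10e-05). Tyms and Tk1 changed by −0.28 ± 0.076 (SE, limma adjusted p = 0.00631) and −0.26 ± 0.085 (SE, limma adjusted p = 0.0241), and Tk1 reached −0.22 (limma adjusted p = 0.0534) without replicate 1 of 1 % CTRL. The large reductase subunit Rrm1 was not called, at −0.048 ± 0.039 (SE, limma adjusted p = 0.436) and at −0.0042 without replicate 1 of 1 % CTRL. Dut was not called either, at −0.15 ± 0.10 (SE, limma adjusted p = 0.338). Rrm1 and Rrm2, subunits of 1 enzyme, had different values, a difference that was not tested. In the chromatin and checkpoint role, Ccne2, on chromosome 4 (11191351 to 11204779), had 985, 1071 and 1339.6 and 590.4, 688 and 762 normalized counts and fell by 37.9 % (log2 fold change −0.69 ± 0.086 SE, limma adjusted p = 5.01e-07). Uhrf1 had 1835, 2049 and 2579.9 and 1305, 1427 and 1623, a log2 fold change of −0.54 ± 0.095 (SE, limma adjusted p = 1.44e-04). Chaf1b and Dtl changed by −0.46 ± 0.11 (SE, limma adjusted p = 0.00230) and −0.42 ± 0.093 (SE, limma adjusted p = 0.00102). Timeless had 392, 406 and 479 and 262, 306 and 368 normalized counts and fell by 24.7 %. Slbp, Clspn, Ccne1 and Chaf1a fell by 18.1 %, 19.7 %, 21.1 % and 19.9 %. The smallest fall of this role was in Tipin, at 14.2 %.

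**Figure D3:**
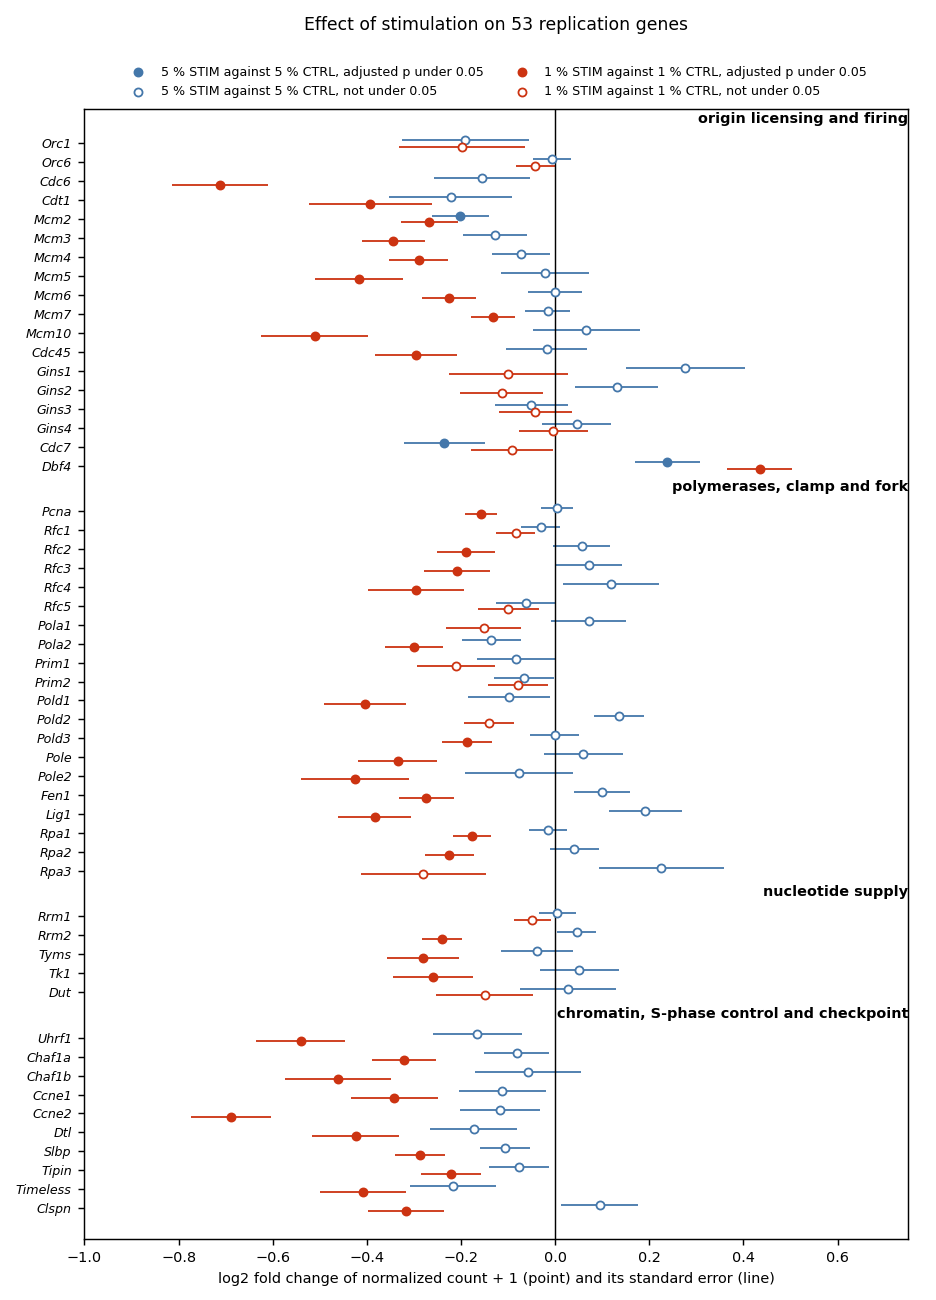
Log2 fold change with stimulation (horizontal axis) for the 53 genes by role, at 5 % and at 1 % O2. Points are limma estimates with their standard error, filled where the adjusted p-value was under 0.05. At 5 % O2 3 points are filled, with 22 values above 0 and 31 below it. At 1 % O2 52 of 53 lie below 0 (50 of 53 without replicate 1 of 1 % CTRL), with Dbf4 at 0.44.

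Whether stimulation acted differently at the O2 levels was tested as the interaction, the response at 1 % minus that at 5 % O2. It was below 0 for 11 genes and above 0 for 0 in limma (31 and 0 at an unadjusted p-value under 0.05), and above 0 for 0 in edgeR and DESeq2. By limma 11.3 % of all genes tested passed, 5.43 % below 0 and 5.88 % above, with a median of 0.0072. The median over the 53 genes was −0.23, and −0.19 without replicate 1 of 1 % CTRL. The same 11 passed without replicate 1 of 1 % CTRL. Of all 14541 genes tested, 2316 passed without that library, against 1645 with all 24 libraries. With the trend of counts with gene length as a covariate, 24 genes passed, these 11 among them, and 1800 of all genes tested. Lig1 had the smallest adjusted p-value. Its counts were 239, 257 and 306 in 5 % CTRL and 280.1, 289 and 343 in 5 % STIM. The log2 fold change was 0.19 beside the fall of 0.38 at 1 % O2. Its interaction was −0.57 ± 0.11 (SE, limma adjusted p = 4.76e-04). Rrm2 changed by 0.046 at 5 % and −0.24 at 1 % O2, a difference of −0.29 ± 0.059 (SE, limma adjusted p = 0.00114). For Ccne2 the changes were −0.12 and −0.69, a difference of −0.57 ± 0.12 (SE, limma adjusted p = 0.00213), with 17.4 % of its exon bases opposite exons of Ints8. For Cdc6 they were −0.16 and −0.71, a difference of −0.56 ± 0.15 (SE, limma adjusted p = 0.00979). Mcm10 and Clspn had differences of −0.58 ± 0.16 (SE, limma adjusted p = 0.0158) and −0.41 ± 0.11 (SE, limma adjusted p = 0.0160).

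The other genes of these 11 belong to the fork. Fen1, the flap nuclease, had an interaction of −0.37 ± 0.083 (SE, limma adjusted p = 0.00232). Pole and Pold2, subunits of the leading and lagging strand polymerases, had −0.39 ± 0.12 (SE, limma adjusted p = 0.0258) and −0.28 ± 0.075 (SE, limma adjusted p = 0.0132). Tmem258, which lies opposite Fen1, had an interaction of −0.56 (limma adjusted p = 0.134). Rpa2, which coats single strands, had −0.27 ± 0.073 (SE, limma adjusted p = 0.0139), and Pcna −0.16 ± 0.048 (SE, limma adjusted p = 0.0252). The stimulation contrasts at both O2 levels share no library. Log2 fold changes were below 0 at both levels for 31 of 53 genes, and across the 53 genes they had a Pearson r of 0.411 and a Spearman rho of 0.366.

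**Figure D4:**
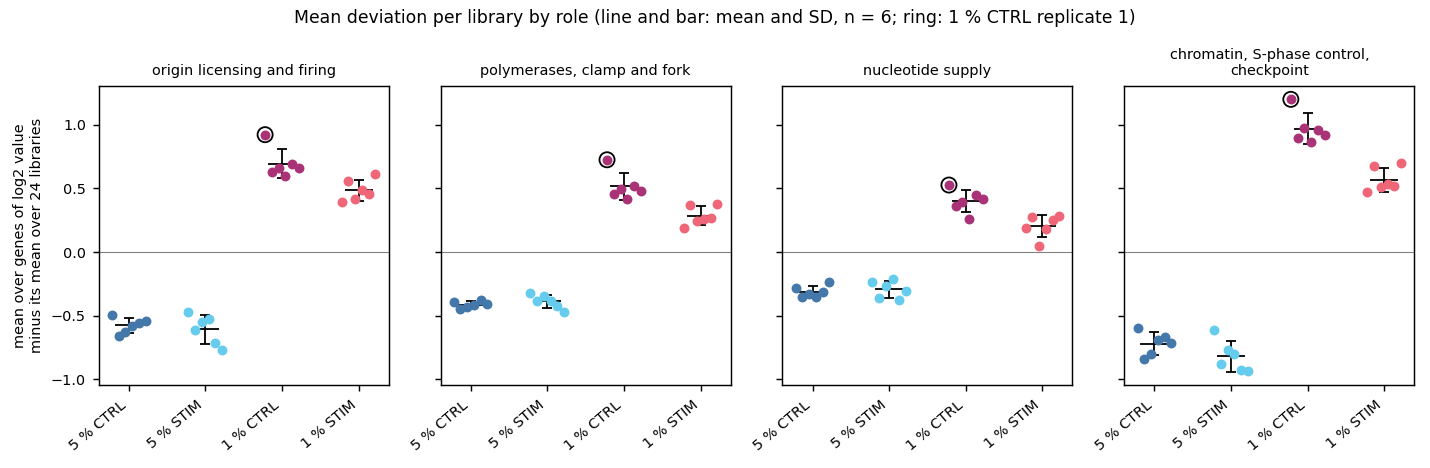
Mean deviation of each library from the 24-library mean (vertical axis, log2 units, averaged over the genes of a role) for the 4 roles by group. Points are libraries. Over all 53 genes the means lie between −0.59 and −0.46 in 5 % CTRL, −0.64 and −0.42 in 5 % STIM, 0.55 and 0.86 in 1 % CTRL, and 0.31 and 0.51 in 1 % STIM.

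Levels were compared between genes per kb of exon. In 5 % CTRL, Rrm2 was the most abundant at 1163 normalized counts per kb, ahead of Pcna at 825 and Rrm1 at 353. The lowest was Mcm10 at 9.67, below Chaf1b, Dtl and Cdc6 at 12.1, 14.02 and 14.5. At 1 % O2 at rest these 4 low genes rose between 3.61-fold and 8.31-fold. The ratio of the highest to the lowest level was 120 in 5 % CTRL and 55.4 in 1 % CTRL. The helicase subunits, which form a ring of 1 copy each, had levels per kb in 5 % CTRL of 71.1 (Mcm2), 117 (Mcm3), 186 (Mcm4), 85.8 (Mcm5), 176 (Mcm6) and 228 (Mcm7). In 1 % CTRL these levels were 226, 442, 527, 403, 464 and 444 in the same order. The 3 subunits lowest per kb at 5 % O2, Mcm2, Mcm5 and Mcm3, were also those with the largest fold rise. The level in 5 % CTRL is also the denominator of the fold rise, so both are coupled by calculation. This holds for the 4 low genes too, and a relation between level and rise was not tested. Exon length was the union over all transcripts, so a gene with long rare exons is understated.

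A further 47 genes of replication, all tested, were read from a wider list. In 1 % CTRL against 5 % CTRL 31 rose and 6 fell, where 29.4 % and 30.5 % of all genes tested were called higher and lower. In 1 % STIM against 5 % STIM 32 rose and 2 fell, where these shares were 29.0 % and 28.4 %. At rest the largest rises were in Hells, a chromatin remodeller, at 2.04, Gmnn, the licensing inhibitor geminin, at 1.90, and Wdhd1, a fork protein, at 1.67 on the log2 scale. The largest falls were in the checkpoint genes Atrip at −0.27 and Rad17 at −0.26 and in the polymerase subunit Pole4 at −0.18. In stimulated cells Hells (1.94), Wdhd1 (1.295) and Ticrr (1.28), an origin firing factor, rose most, while Pold4 (−0.22) and Atrip (−0.19) fell. Stimulation at 5 % O2 raised 1 of the 47, the S and G2 cyclin Ccna2 at 0.26, and lowered 7, most of all the deaminase Dctd at −0.36 and the origin recognition subunits Orc5 at −0.31 and Orc3 at −0.18. Of all genes tested 9.44 % were called higher and 12.0 % lower, the latter near the share of this list. Without replicate 1 of 1 % CTRL, 9 of the 47 were lower at 5 % O2, with Dnmt1 (−0.12) and Hells (−0.21) added. Of all genes tested 3469 were then called there in either direction, against 3115 with that library. At 1 % O2 stimulation raised 1, the histone chaperone Asf1a at 0.21, and lowered 18, led by the salvage kinase Dck at −0.50, Gmnn at −0.47 and the clamp loader Chtf18 at −0.47, where 11.5 % and 10.8 % of all genes tested were called. When replicate 1 of 1 % CTRL was left out it lowered 13 and raised 2, with Rad17 added to the latter. Of all genes tested 3748 were then called in either direction, against 3245 with that library. Also without that library, the counts with O2 at rest were again 31 and 6, with Orc3 replaced by Rnaseh2c. There 8955 of all genes tested were called in either direction. Interactions below 0 numbered 7, led by Gmnn at −0.74, the replisome gene Donson at −0.71 and Dck at −0.49. Another 3 were above 0, in Dctd at 0.36, Orc4 at 0.18 and Rad17 at 0.18, where 5.43 % and 5.88 % of all genes tested passed. Without that library the interaction numbered 7 below 0 and 4 above it.

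Genes of cells that divide were read beside these results. The 10 markers of dividing cells summed to 4008 to 4635 normalized counts in 5 % CTRL, 4634 to 7078 in 1 % CTRL (5850.5 at most without replicate 1), 4554 to 5361 in 5 % STIM and 4703 to 6177 in 1 % STIM, and no marker was at 0. In 1 % CTRL against 5 % CTRL 5 rose and 2 fell, also without replicate 1 of 1 % CTRL, where 29.4 % of all genes tested were higher and 30.5 % lower. Those that rose were Top2a at 0.74, Bub1 at 0.72, Aurkb at 0.65, Cdk1 at 0.55 and Birc5 at 0.31. The mitotic cyclins Ccnb1 and Ccnb2 fell by 0.50 and 0.32 on the log2 scale, and the proliferation marker Mki67 was not called, at −0.044 (adjusted p = 0.766, limma). Without replicate 1 of 1 % CTRL, Mki67 was at −0.16 (limma adjusted p = 0.112). Stimulation called 2 of the 10 at 5 % O2, Cdk1 and Ccnb1, both higher. Of all genes tested 21.4 % were called there, 9.44 % higher and 12.0 % lower. Without replicate 1 of 1 % CTRL, Aurka was also called higher at 5 % O2, at 0.24 (limma adjusted p = 0.0496). At 1 % O2 the log2 fold changes of the 10 markers with stimulation lay between −0.23 and 0.20 (limma adjusted p of at least 0.0848). When replicate 1 of 1 % CTRL was left out, Plk1 was called higher at 0.24 (limma adjusted p = 0.0344). Of 7 markers of undifferentiated myoblasts, Pax7 and Myf5 rose at rest under 1 % O2, by 0.69 and 0.63, while 3 fell, among them Myod1 at −0.83. Their summed level was 32162 to 34897 normalized counts in 5 % CTRL and 27790.4 to 29943 in 1 % CTRL. Of the 16 myotube markers 3 rose and 7 fell, where 29.4 % of all genes tested were higher and 30.5 % lower. Without replicate 1 of 1 % CTRL 4 rose, with Mylpf added, and 7 fell. The summed range of the 16 markers was 668692 to 730929 in 5 % CTRL and 624921 to 698769 in 1 % CTRL. Stimulation at 1 % O2 moved markers of both kinds as well, where 11.5 % of all genes tested were called higher and 10.8 % lower. Of the myoblast markers 2 rose and 4 fell, the latter being Myod1 at −0.59, Sdc4 at −0.49, Pax7 at −0.35 and Cav1 at −0.25, also without replicate 1 of 1 % CTRL. Their summed level in 1 % STIM, 24132 to 26233 normalized counts, lay below that in 1 % CTRL without overlap. Of the myotube markers 3 fell, among them Myog at −0.64, and the summed level in 1 % STIM was 621282 to 672790. When replicate 1 of 1 % CTRL was left out 6 fell, with Acta1, Mylpf and Mymx added. Of all genes tested 3748 were then called in either direction, against 3245 with that library. The part of these cell types in the replication genes was not tested.

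Some counts could hold reads of other genes. Beside Fen1, Gins2, Chaf1a and Ccne2, between 5.79 % and 15.1 % of exon bases lay opposite another gene for Rfc2 (Lat2), Rfc4 (Eif4a2), Orc1 (Gm12743), Rfc5 (Wsb2), Mcm7 (Ap4m1 and Cops6), Slbp (Gm10459), Orc6 (Vps35), Cdc45 (Ufd1) and Lig1 (Zswim9). Copies elsewhere in the genome shared 13.8 % of the exon words of 75 bases of Pcna (Pcna-ps2), 9.05 % of those of Uhrf1 (Gm5648) and 7.34 % of those of Rpa3 (Gm6195). On the same strand, Pole2 shared 8.50 % of its exon bases with Gm49384, Mcm7 3.89 % with Mir25 and Mir93, and Rpa1 0.789 % with Gm47300. Of the largest partners, Gse1, opposite Gins2, changed by −0.82 in 1 % CTRL against 5 % CTRL (limma adjusted p = 8.28e-11), a sign opposite to that of Gins2. Tmem258, opposite Fen1, had 0.20 (limma adjusted p = 0.306), Ubxn6, opposite Chaf1a, 0.18 (limma adjusted p = 0.0252), and Ints8, opposite Ccne2, 0.021 (limma adjusted p = 0.653). Cdc6, Mcm2, Mcm3, Mcm5, Mcm10 and Dtl had no exon base opposite another gene.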

How the data were processed

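Stranded mRNA libraries of 24 C2C12 myotube samples were read from a single end, aligned to GRCm38 with STAR 2.5.4b and counted per gene with RSEM 1.3.0 at default parameters, which do not use strand, after FastQC 0.11.7 (submitters' processing notes and methods). The signal values that the authors deposited are gene counts scaled by library size factors from DESeq2. A second deposited table holds the authors' log2 fold changes, p-values and a score per call, and was not used. No column of values was left out. Samples were grouped by their labels.

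Of 55487 genes, 55227 (99.5 %) were found in GENCODE M21, which gave coordinates, exon lengths and overlaps. The 14541 genes with at least 10 normalized counts in at least 6 libraries entered a single limma 3.58.1 fit (R 4.3.3) of log2(normalized count + 1) on the 4 groups, with a trend and robust variance and two-sided tests. A gene was called at a p-value under 0.05 after Benjamini-Hochberg adjustment over all genes tested. Reads were recovered from the smallest step between values, and 100 % of values came out whole within 0.01. Alternatives were omission of the filter, a pseudocount of 10, the replicate number as a block, libraries rescaled to the same total, edgeR 4.0.16 quasi-likelihood and DESeq2 1.42.0 on whole reads, omission of replicate 1 of 1 % CTRL, and the slope of counts on gene length as a covariate. Pairs of replicates differed beyond sampling noise, the closest pair by a chi-square of 2.57 per gene. The fit was tested on simulated data.

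Named are up to 4 called genes with the largest change per role and comparison, every gene called in the interaction, and up to 3 per direction of the wider list. Members, lists and rule were chosen with earlier results of these data known. Motif windows were searched with Python 3.11.15.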

Additional observations from a re-analysis of the deposited data

Results flagged for a closer look

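Each gene and group gave 6 values, 212 groups of values in all, and each was examined for a lowest or highest library far from the rest (a gap to its neighbour past Dixon's 95 % critical value). Chance gives about 1 in 20 such groups, and 29 were found. Replicate 1 of 1 % CTRL accounted for 23, always as the highest library, and each is given with its normalized count and that of the next library. This was so for Orc1 (207, next 159), Cdc6 (788, next 634), Mcm3 (2042, next 1595), Mcm4 (2223, next 1884), Mcm5 (1967, next 1606), Mcm6 (2653, next 2175), Mcm7 (2314, next 1998) and Cdc45 (482, next 382). In the same library the count lay apart for Gins3 (367, next 277), Pcna (2762, next 2579), Rfc1 (2663, next 2271), Rfc2 (580.3, next 479), Rfc3 (496, next 393), Pola1 (1008, next 728), Prim1 (637, next 508) and Pold3 (713, next 627). The remaining ones were Pole (729, next 542), Rpa1 (2584, next 2253), Rrm1 (5962, next 5100.1), Rrm2 (5653, next 5005), Uhrf1 (2579.9, next 2088), Timeless (479, next 413) and Clspn (898, next 651). The other 6 were spread over 5 libraries. Mcm2 had its highest value of 5 % STIM in replicate 1, at 503 with the next at 432. Gins4 had its lowest value of 1 % CTRL in replicate 2, at 250.4 with the next at 297. Rfc2 had its lowest value of 5 % CTRL in replicate 3, at 274 with the next at 305. Fen1 had its lowest value of 1 % STIM in replicate 1, at 469.6 with the next at 555. Rpa1 had its lowest value of 5 % STIM in replicate 6, at 1198 with the next at 1256. Timeless had its highest value of 5 % STIM in replicate 1, at 124 with the next at 99.9.

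The response to stimulation at 1 % O2 minus that at 5 % O2 passed the interaction test of limma for 11 genes. On the log2 scale the difference was −0.56 for Cdc6, −0.58 for Mcm10, −0.16 for Pcna, −0.28 for Pold2, −0.39 for Pole, −0.37 for Fen1, −0.57 for Lig1, −0.27 for Rpa2, −0.29 for Rrm2, −0.57 for Ccne2 and −0.41 for Clspn. Every one of these was below 0 and was also below 0 and called without replicate 1 of 1 % CTRL.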

How the results depend on the processing

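Of 64 named gene values, each under 8 alternatives, 500 kept their direction and their side of the threshold, 8 lost a call, 1 gained one and 3 changed sign. Cdc7 in 5 % STIM against 5 % CTRL lost its call 6 times (adjusted p from 0.0507 to 0.128 in limma, edgeR or DESeq2), with a pseudocount of 10, no filter, rescaled libraries, edgeR, DESeq2 and the length slope. The other losses were Tk1 in 1 % STIM against 1 % CTRL without replicate 1 of 1 % CTRL (adjusted p = 0.0534, limma) and the Pcna interaction without the filter (adjusted p = 0.0558, limma). The sign changes were in genes that were not called in 1 % STIM against 5 % STIM. They were Dbf4 at −0.0057 with the length slope, and Rpa3 at 0.059 with rescaled libraries and 0.035 with the length slope. With the length slope 5 genes were called in 5 % STIM against 5 % CTRL (3 without it) and 24 in the interaction (11 without it). Of all genes tested, 3561 (3115 without it) and 1800 (1645 without it) were called in these comparisons. The cause was not tested. Other counts stayed within 1.5 times, at 32 to 40 in 1 % STIM against 1 % CTRL, 52 or 53 in 1 % CTRL against 5 % CTRL and 51 in 1 % STIM against 5 % STIM. Rescaling shifted the median of all genes by at most 0.082 on the log2 scale. No pairing of samples by replicate number was seen. Same-numbered libraries had correlations of deviations from −0.148 to 0.155, 2 of 36 over 0.1 and 8 highest with their own number. Weak correlations cannot exclude a pairing. With the replicate block the counts were 4 in 5 % STIM against 5 % CTRL, 36 in 1 % STIM against 1 % CTRL, 52 in 1 % CTRL against 5 % CTRL, 51 in 1 % STIM against 5 % STIM and 12 in the interaction. Genes near the minimum of 10 normalized counts rest on about 10 reads, but the lowest member value was 25.1.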

Other observations

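Spread between libraries was alike in the groups with all 24 libraries, but smallest in 1 % CTRL when its replicate 1 was left out. The coefficient of variation of normalized counts had a median over the 53 genes of 8.51 % in 5 % CTRL, 8.93 % in 5 % STIM, 9.17 % in 1 % CTRL and 7.58 % in 1 % STIM, and of 5.06 % in 1 % CTRL without its replicate 1. Replicate 1 of 1 % STIM was the highest of its group for 0 of 53 genes, while replicate 1 of 5 % STIM was the highest for 29.

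Other promoter letters were searched in the same windows of the 44 genes, on both strands. CCAAT was in 59.1 % of these genes, 43.1 % of genes tested and 41.1 % of all genes with windows. TTTGAA, the core of the element that represses many mitotic genes outside G2, was in 15.9 %, 14.3 % and 20.2 %.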
